A study of Homo sapiens with 2 samples.

Results

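EGR1, EGR2, EGR3, NR4A1, NR4A2, NR4A3, IER2, IER3, IER5 and SRF were compared between control and FZR1 ko breast cancer cells treated with cisplatin. They were chosen by name, as immediate early genes of the serum response outside the AP-1 family together with SRF, and each was found by its Entrez gene ID. All 10 had a value among the 23033 genes with a value. The cells, both cultures labelled T-47D and treated with 2 µg/ml cisplatin, carried either the WT genotype or a CRISPR/Cas9 knockout of FZR1, which guides the anaphase-promoting ubiquitin ligase to its substrates. The study made the FZR1 ko line by single cell cloning, so the line is 1 clone. There was 1 library per genotype, untreated cells were not analysed here, and neither the labels nor the text give the time in cisplatin for this experiment.

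Immediate early genes are switched on within minutes of a stimulus, from transcription factors already present in the cell and without new protein synthesis. Growth factors and stress act through the RAS, ERK and p38 kinases on ternary complex factors such as ELK1, which sit with SRF on CArG boxes, while calcium and cAMP act through CREB on CRE sites. Their mRNAs are short lived, so the level follows recent transcription. EGR1, EGR2 and EGR3 encode zinc finger factors that bind GC-rich sites. NR4A1, NR4A2 and NR4A3 encode orphan nuclear receptors that act without a known hormone. IER2, IER3 and IER5 encode small proteins that are not alike in function, and SRF is both a regulator and a target of the response.

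All 10 genes had a lower FPKM (fragments scaled to transcript length and to library size) in FZR1 ko than in control, as did 50.3% of all genes kept by the filter described next. The log2 ratio of FZR1 ko over control was taken after adding 1 to each FPKM, which understates the change of low genes. It was read over the 13554 genes that reached 1 FPKM in either library. Of the 10 genes, 8 passed this filter, and all 8 had at least 1 FPKM in both libraries. Of these, 6 were at least 2-fold lower in FZR1 ko (EGR1, NR4A1, NR4A2, IER2, IER3 and IER5) and 0 were at least 2-fold higher. Among all genes kept, 6.72% were at least 2-fold lower and 6.78% at least 2-fold higher. The median log2 ratio was -1.06 over the 8 genes and -0.0048 over all genes kept. With 1 library per genotype no test was made, and no difference has a replicate check.

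**Figure D1:**
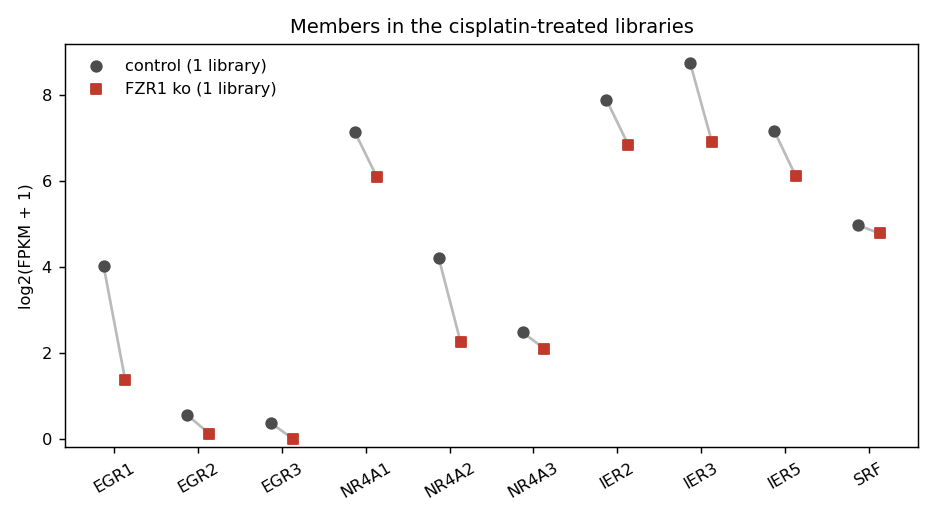
log2(FPKM + 1) of each of the 10 genes in control (circles) and FZR1 ko (squares), 1 library each, joined by a line. Every line falls from control to FZR1 ko, most steeply for EGR1 (15.4 and 1.57 FPKM) and least for SRF (30.6 and 26.6 FPKM) among the 8 genes of at least 1 FPKM.

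The genome-wide facts that bear on these values are few. In genes with a single annotated transcript of 500 to 1500 bases, the lowest values gathered at a common step of FPKM times length, taken as 1 fragment. This step gave about 21000000 mapped fragments in each library, with an assumed fragment length of 150 bases. It is a rough estimate, since FPKM itself holds no counts. FZR1 mRNA had 12.3 FPKM in control against 10.1 FPKM in FZR1 ko (log2 ratio -0.26), and an mRNA level of this kind does not by itself show whether the gene was disrupted. The labelled line was checked against 12 luminal markers, of which 5 were kept. KRT8 had 829 FPKM and KRT18 552 FPKM in control, but ESR1 had 0.04 and 0.13 FPKM, GATA3 0.31 and 0.15 FPKM and CDH1 0.69 and 0.62 FPKM, so these defining markers of T-47D were near 0 in both libraries. Other luminal markers had values, with 5.07 and 4.65 FPKM for FOXA1, 9.80 and 7.52 FPKM for TFF1, and 93.4 and 72.6 FPKM for XBP1. Among 8 basal and mesenchymal markers, 5 were kept. VIM had 315 and 295 FPKM, CDH2 had 2.97 and 15.3 FPKM (2.04), and SNAI2 had 7.05 and 3.86 FPKM (-0.73), while the basal markers KRT5, KRT14 and TP63 were at most 0.19 FPKM in either library. The summed FPKM of the luminal list was 1491 in control and 1824 in FZR1 ko, that of the basal and mesenchymal list was 334 and 324 FPKM, and that of 6 immune and stromal markers was 52.0 and 72.0 FPKM. In the last list, 3 were kept. All 3 were higher in FZR1 ko, within the 2-fold threshold, while 50.3% of all genes kept were lower. CD68, a lysosomal protein abundant in macrophages, made up most of the sum with 46.1 and 63.8 FPKM (0.46). COL1A1 had 5.13 and 6.25 FPKM (0.24). PDGFRB had 0.44 and 1.58 FPKM (0.84), so it passed the filter through FZR1 ko alone. PTPRC, which marks leukocytes, had 0.08 and 0.09 FPKM, and CD3E, which marks T cells, was listed at 0 in both libraries. The part of such differences in the results was not tested.

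EGR1 (Entrez 1958, chromosome 5, 138465479 to 138469303 on GRCh38.p14, as for the positions that follow), the most widely expressed EGR gene, had 15.4 FPKM in control against 1.57 FPKM in FZR1 ko. The log2 ratio was -2.68, and without a pseudocount the FPKM was 9.82-fold higher in control. Ranked from the lowest log2 ratio, EGR1 was number 25 of the 13554 genes and number 12 of the 11550 protein-coding genes. With 1 added to each FPKM, it was the single gene of the 8 that was at least 4-fold lower, as were 0.657% of all genes kept. Without a pseudocount NR4A2 passed 4-fold as well. EGR2 (Entrez 1959, chromosome 10, 62811996 to 62819167), known for its role in myelin and in T cells, had 0.47 FPKM in control against 0.09 FPKM in FZR1 ko (log2 ratio -0.43). EGR3 (Entrez 1960), a close relative of EGR1, had 0.29 FPKM in control, and FZR1 ko listed it at 0. Neither passed the filter. By the step above, EGR2 rested on about 28 fragments in control and 5.3 in FZR1 ko, and EGR3 on about 26 in control, whereas EGR1 rested on about 960 and 98. EGR1 made up 95.3% of the summed FPKM of the family in control and 94.6% in FZR1 ko, so the family was mostly EGR1 in both.

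NR4A1 (Entrez 3164, chromosome 12, 52022832 to 52059503), also called NUR77, was the most abundant NR4A gene, with 140 FPKM in control against 68.0 FPKM in FZR1 ko (log2 ratio -1.03). NR4A2 (Entrez 4929, chromosome 2, 156324437 to 156332721), or NURR1, known for its role in dopamine neurons, had 17.5 FPKM in control against 3.78 FPKM in FZR1 ko (-1.95), number 104 from the lowest. NR4A3 (Entrez 8013, chromosome 9, 99821885 to 99866891), or NOR1, had 4.59 FPKM in control against 3.29 FPKM in FZR1 ko (-0.38), under the 2-fold threshold. The family was therefore uneven. Its least abundant member was 1.40-fold higher in control without a pseudocount, against 4.63-fold for NR4A2 and 2.06-fold for NR4A1. The summed FPKM of the 3 genes was 162 in control and 75.0 in FZR1 ko, and NR4A1 held 86.4% of it in control and 90.6% in FZR1 ko. The annotation places noncoding genes over NR4A1, NR4A1AS among them, and whether counting used strand is not given in the sources used here, so reads of these cannot be told apart from those of NR4A1. A noncoding gene overlaps EGR3 as well.

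In control the IER genes had the highest FPKM of the 10. IER3 (Entrez 8870, chromosome 6, 30743199 to 30744547), a regulator of survival that NF-kB and p53 are known to act on, had 431 FPKM in control against 119 FPKM in FZR1 ko. Its log2 ratio was -1.85 and its rank number 123 from the lowest. IER3-AS1 overlaps it, with the same limit as for NR4A1. IER2 (Entrez 9592, chromosome 19, 13150411 to 13154911), a nuclear protein with a role in cell movement, had 238 FPKM in control against 115 FPKM in FZR1 ko (-1.05). IER5 (Entrez 51278, chromosome 1, 181088700 to 181092900), which binds the phosphatase PP2A and acts on the heat shock factor HSF1, had 144 FPKM in control against 68.5 FPKM in FZR1 ko (-1.07). IER2, IER5 and NR4A1 lay next to the threshold, from -1.07 to -1.03, at ranks 782 to 832 from the lowest. In control IER3 held 53.0% of the summed FPKM of the 3 IER genes, and in FZR1 ko it held 39.4%, so that IER3 and IER2 had nearly the same level there.

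SRF (Entrez 6722, chromosome 6, 43171269 to 43181506), the factor that binds CArG boxes in many immediate early promoters, had 30.6 FPKM in control against 26.6 FPKM in FZR1 ko. Its log2 ratio of -0.20, number 5106 from the lowest, was the smallest change among the 8 genes kept. From low to high log2 ratio the order was EGR1, NR4A2, IER3, IER5, IER2, NR4A1, NR4A3 and SRF. Without replicates, neighbours in this order have no spread to be set against.

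**Figure D2:**
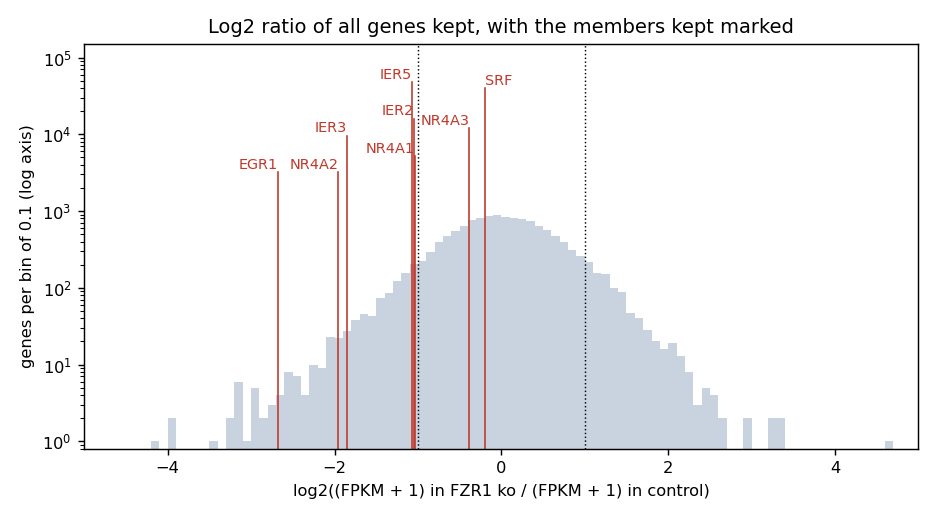
Histogram of the log2 ratio of the 13554 genes kept (grey, number of genes per bin on a log axis), with the 8 genes kept of the set drawn as red lines and dotted lines at the 2-fold threshold. All 8 lie to the left of 0, EGR1 at -2.68 in the far left tail, and NR4A3 and SRF inside the threshold.

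The 250 bases before the annotated start sites were read for motifs of known regulators, since 6 of the genes were lower together. RefSeq windows on GRCh38.p14 were matched for 7 genes, with 11 start sites in all, and no window was matched for EGR3, NR4A2 and IER3. CArG boxes, the SRF sites, were found before EGR1, EGR2 and SRF, of which EGR1 alone is among those 6 genes. They lay in 3 of the 11 windows, and in 1.16% of all 35116 windows. The windows are shown 5′ to 3′ on the strand of each gene, with the CArG boxes in capitals, because they show which of the genes hold them and where. EGR1 lies on the plus strand (chr5:138465229-138465478), SRF on the plus strand (chr6:43171019-43171268) and the EGR2 window, on the minus strand (chr10:62816367-62816616), is that of the most downstream of 3 annotated starts and lies inside the gene.
EGR1: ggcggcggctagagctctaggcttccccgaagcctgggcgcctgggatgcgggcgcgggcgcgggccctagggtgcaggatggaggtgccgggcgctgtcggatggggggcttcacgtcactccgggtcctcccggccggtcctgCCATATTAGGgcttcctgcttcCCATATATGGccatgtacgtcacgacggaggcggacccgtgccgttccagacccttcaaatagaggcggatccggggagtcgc
EGR2: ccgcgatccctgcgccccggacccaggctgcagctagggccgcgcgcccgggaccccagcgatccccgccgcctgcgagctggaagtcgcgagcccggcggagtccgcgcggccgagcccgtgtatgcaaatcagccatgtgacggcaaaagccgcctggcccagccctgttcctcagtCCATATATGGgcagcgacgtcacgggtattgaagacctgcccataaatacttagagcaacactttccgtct
SRF: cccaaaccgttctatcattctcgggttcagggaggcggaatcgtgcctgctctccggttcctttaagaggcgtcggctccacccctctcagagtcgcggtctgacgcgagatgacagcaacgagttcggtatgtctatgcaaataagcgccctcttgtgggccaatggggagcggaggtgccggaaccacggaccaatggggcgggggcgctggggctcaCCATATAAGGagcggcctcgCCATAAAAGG

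Counted from the base before the start site as -1, EGR1 had CArG boxes at -105 to -96 and at -83 to -74, EGR2 had a single box at -71 to -62, and SRF had boxes at -30 to -21 and at -10 to -1. Each box matched on both strands, which holds for any CArG box because its pattern reads the same on either strand. EGR1 and SRF thus each held a pair of boxes, while their log2 ratios were -2.68 and -0.20. The GC-rich EGR site (GCGNGGGCG, both strands) was found before EGR1 and SRF as well, in 8.41% of all windows, and in SRF it overlapped a GC box (GGGCGG), which 42.6% of all windows hold. The GC box was also found before EGR2, NR4A1 and IER2. For NR4A1, only the windows of annotated starts at 52022832 and 52037715 were read. Any start farther downstream in that gene was not, so its motifs are known for these windows alone.

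The CRE core (TGACG, both strands) was found before EGR1, EGR2, NR4A3, IER2 and SRF, and in 21.2% of all windows. NR4A3 held 4 of them and no CArG box, which is why its window is shown, with the cores in capitals. It lies on the plus strand (chr9:99821635-99821884), and the cores start at -109, -91, -83 and -25.
NR4A3: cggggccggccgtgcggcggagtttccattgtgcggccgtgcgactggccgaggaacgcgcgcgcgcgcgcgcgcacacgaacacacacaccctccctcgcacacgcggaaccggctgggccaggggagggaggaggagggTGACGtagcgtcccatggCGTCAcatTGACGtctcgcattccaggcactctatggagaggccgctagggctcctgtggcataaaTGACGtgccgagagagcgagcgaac

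The full CRE (TGACGTCA, which contains the core), the AP-1 site (TGANTCA), the NR4A site NBRE (AAAGGTCA) and the TATA box (TATAAA) were matched in 0 of the 11 windows, and in 1.65%, 6.57%, 1.05% and 10.7% of all windows. For IER5 none of these motifs was matched. Among the other genes kept, 139 had a CArG box before a start site. Of these, 3.60% were at least 2-fold lower and 6.47% at least 2-fold higher in FZR1 ko, with a median log2 ratio of 0.043. The 3697 other genes with a CRE core had a median of -0.0077, and 5.98% were at least 2-fold lower. A match is a description of the letters in this window only, and sites farther away were not searched.

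**Figure D3:**
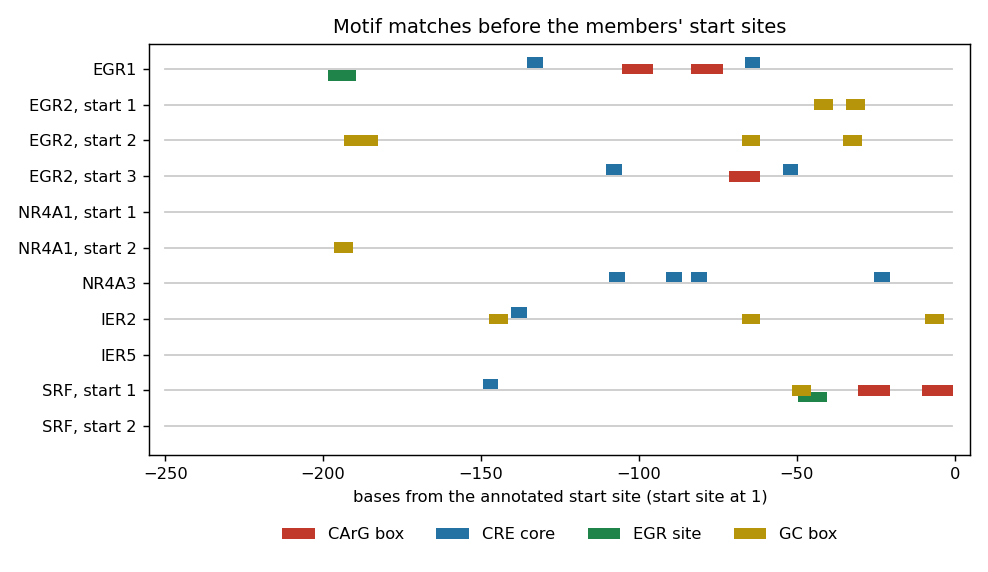
Motif matches in the 250 bases before each annotated start site of 7 genes, as coloured bars on a line per start, with distance from the start in bases. CArG boxes (red) lie before EGR1, the third EGR2 start and the first SRF start, and NR4A3 holds 4 CRE cores (blue).

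Gene structure differed among the 10 genes. In the MANE Select transcripts of GENCODE 44, EGR1, EGR2, EGR3, IER2 and IER3 have 2 exons and IER5 has 1, so 6 of the 10 genes have at most 2 exons. The NR4A genes and SRF have 7 or 8. Among the other protein-coding genes kept, 7.07% have at most 2 exons and the median is 9. These 803 genes with few exons had a median log2 ratio of -0.38, and 17.1% of them were at least 2-fold lower in FZR1 ko, against 4.66% of the 10555 genes with more exons. Without histone genes, the 748 remaining genes had a median of -0.32, and 13.4% were at least 2-fold lower. Without the other immediate early genes too, the values were -0.32 and 12.9% over 742 genes. Gene structure thus moved with the log2 ratio across the libraries, and its part in the change of the 10 genes was not tested. Of the 8 genes kept, the 4 with at most 2 exons (EGR1, IER2, IER3 and IER5) were all at least 2-fold lower. Of the 4 with more exons, NR4A1 and NR4A2 were at least 2-fold lower, and NR4A3 and SRF were not.

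Immediate early mRNAs are known for AU-rich elements in the 3′ UTR, which speed their decay. The pentamer ATTTA was counted there. IER3 had 6 in 740 bases, or 8.11 per kb, and NR4A1 had 5.34 per kb, against a median of 1.62 per kb over the other protein-coding genes kept. IER5, NR4A3 and NR4A2 had 3.31, 3.30 and 3.05 per kb. EGR1 had 0.816 per kb and IER2 had 0. The part of mRNA decay in the lower levels was not tested. Among the other genes, the 2840 richest in ATTTA had a median log2 ratio of 0.0083 with 5.95% at least 2-fold lower, and the 2840 poorest 0.039 with 5.56%. The median GC content of the 10 transcripts was 54.1%, above the median of 49.0% of the others, and their lengths ran from 1237 bases (IER3) to 5604 bases (NR4A3), with a median of 3305 bases against 3234 bases. Of the 2840 shortest other transcripts, 7.68% were at least 2-fold lower and 3.87% at least 2-fold higher, and of the 2840 longest, 3.59% and 11.0%. The part of length in the change of the 10 genes was not tested. Of the 2840 genes richest in GC, 6.30% were at least 2-fold lower, and of the 2840 poorest, 4.51%.

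Of 4 family relatives and EGR corepressors, 3 were kept. All 3 had a lower FPKM in FZR1 ko, as did 50.3% of all genes, and 0 were at least 2-fold lower, against 6.72%. IER5L, a relative of IER5, had 55.3 and 29.4 FPKM (-0.89). NAB2, a corepressor that EGR factors induce and that binds them, had 28.1 and 16.1 FPKM (-0.77), while its relative NAB1 had 17.5 and 15.2 FPKM (-0.19). EGR4 had 0.80 and 0.24 FPKM and did not pass the filter.

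A list of 30 other immediate early genes, the AP-1 genes among them, was described in the same way. All 30 passed the filter. Of these, 16 were at least 2-fold lower in FZR1 ko and 0 at least 2-fold higher, against 6.72% and 6.78% of all genes. The median log2 ratio was -1.09. The largest changes were those of HBEGF, an EGF receptor ligand, with 57.1 and 8.03 FPKM (-2.69), FOS, with 15.97 and 1.86 FPKM (-2.57), and FOSB, with 10.1 and 1.16 FPKM (-2.36). MYC, named here after its value was seen, was the single gene of the list that was higher, with 54.8 and 93.8 FPKM (0.76). In log2 ratio EGR1 lay between HBEGF and FOS.

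Of 15 genes of RAS, RAF, MEK, ERK and their downstream kinases, 14 were kept and 0 were at least 2-fold lower or higher, against 6.72% and 6.78% of all genes, and the median log2 ratio was 0.46. MAP2K2, which encodes MEK2, had 53.7 and 97.1 FPKM (0.84), and NRAS had 62.6 and 36.5 FPKM (-0.76). These are mRNA levels, and kinase activity was not measured in these data. Of 14 genes known to follow ERK output, 10 were kept, 4 were at least 2-fold lower and 0 at least 2-fold higher, beside the same shares of all genes, with a median of -0.70. SPRY4, a feedback inhibitor of receptor signals, had 14.6 and 1.83 FPKM (-2.46), DUSP6, the phosphatase of ERK, had 12.0 and 3.13 FPKM (-1.65), and ETV5, an ETS factor, had 9.74 and 3.43 FPKM (-1.28). DUSP4 had 17.3 and 17.0 FPKM (-0.03).

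The partners of SRF differed among themselves. Of 6 SRF cofactors, 5 were kept, with a median log2 ratio of 0.082. ELK4, a ternary complex factor, had 19.6 and 8.79 FPKM (-1.07), and MRTFA, the actin-sensing cofactor, had 1.01 and 4.41 FPKM (1.43). MRTFB had 1.52 and 2.09 FPKM (0.29), and ELK1 had 34.5 and 36.6 FPKM (0.08). Of 18 cytoskeletal targets of SRF and MRTF, 15 were kept, with a median of 0.27. Of these, 3 were at least 2-fold lower and 0 at least 2-fold higher, against 6.72% and 6.78% of all genes. TAGLN, which encodes transgelin, had 26.4 and 8.46 FPKM (-1.54), TGFB1I1 had 30.5 and 13.1 FPKM (-1.16) and CCN2 had 21.9 and 9.86 FPKM (-1.08), while ACTB had 1235 and 2070 FPKM (0.74). All 8 CREB factors and coactivators were kept. Against 6.72% and 6.78% of all genes, 0 were at least 2-fold lower and 1 was at least 2-fold higher. It was CRTC3, with 10.1 and 25.2 FPKM (1.24). CRTC1 had 1.26 and 2.93 FPKM (0.80), CREM had 26.4 and 15.8 FPKM (-0.71) and CREB1 had 8.18 and 9.40 FPKM (0.18).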

How the data were processed

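RNA was sequenced on a BGISEQ-500, 1 library per genotype. Against hg38, the authors used Bowtie2 and RSEM for transcript alignment and estimation, and they deposited FPKM per Entrez gene ID, to 2 decimals. The submitters' processing notes also list Trimmomatic 0.36, HISAT2 2.1.0 and Bowtie2 2.2.5. The methods of the study give a different version of Bowtie2. The annotation and fragment length are not given in the sources used here. The table had 24663 rows, of which 1630 had no value, and 22925 gene IDs matched RefSeq symbols. Read counts were not used here, so no count model and no p-value was used, and the calculation of the ratios and counts was checked on simulated data. A gene at 0 is described as listed at 0. Fragments behind a value were estimated from FPKM, length and the step of low values, which gave 19000000 mapped fragments per library at an assumed fragment length of 100 bases, and 22000000 in control and 23000000 in FZR1 ko at 250.

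The members, the lists and the motifs were chosen with earlier results of these data known, and some members are shown in heat maps of the study drawn from these libraries. All 10 members were named. Of each list, the first gene and up to 3 genes with the largest changes were named, except for some that are not reported here. Protein features were not analysed here. Counts and ratios were recomputed with pseudocounts of 0.1 and 5 FPKM, other filters, median centring, rescaling of the libraries to a common sum, a restriction to protein-coding genes, and a threshold of 4-fold. Python 3.11.15 was used with pandas 2.3.3, numpy 2.4.6 and matplotlib 3.10.9.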

Additional observations from a re-analysis of the deposited data

How the results depend on the processing

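No paired analysis was possible because there was 1 library per genotype and no test was made, and for the same reason no replicate was left out. Of 64 log2 ratios of the members under the alternatives, all 64 were below 0, and 62 lay within 1.5 times of the value given. Much of this tally was fixed in advance. A change of filter alone, or the restriction to protein-coding genes, cannot change a member's ratio, and median centring shifts every ratio by the same small amount. With a pseudocount of 5 FPKM, EGR1 had -1.64 and NR4A3 -0.21, since a larger pseudocount pulls low genes towards 0. The members at least 2-fold lower numbered 6, with 5 of them left at a pseudocount of 5 FPKM. At 4-fold there was 1, EGR1, and NR4A2 passed 4-fold too with a pseudocount of 0.1 FPKM (-2.18), with the libraries rescaled to a larger common sum, which makes the added 1 count for less (-2.07), and with no pseudocount (-2.21). The median of the 8 members kept, or of all 10 with no filter, ranged from -1.06 to -1.02. The other immediate early genes at least 2-fold lower numbered 16, and 7 at 4-fold. Of all genes, 911 were at least 2-fold lower and 919 at least 2-fold higher. These numbered 89 and 61 at 4-fold and 270 and 183 with a pseudocount of 5 FPKM, and a pseudocount of 0.1 FPKM gave 1358 lower and 1460 higher. A stricter threshold or larger pseudocount passes fewer genes by its construction. Without a pseudocount, among genes that reached 1 FPKM in control and in FZR1 ko alike, an alternative chosen after seeing the data, 6 members were at least 2-fold lower. EGR2 and EGR3 are the values that depth limits most.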

Other observations

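Of 6 genes of proteins that bind AU-rich elements, 2 were at least 2-fold lower and 1 at least 2-fold higher in FZR1 ko, against 6.72% and 6.78% of all genes. The median log2 ratio was -0.42, and the other 3 ran from -0.82 (ZFP36L2) to 0.40 (ELAVL1). ZFP36, or tristetraprolin, which is itself an immediate early gene and is also in the list of 30, had 28.8 FPKM in control against 7.47 FPKM in FZR1 ko (log2 ratio -1.82). ZFP36L1, its relative, had 65.8 and 24.6 FPKM (-1.38), and HNRNPD, which encodes AUF1, had 33.0 and 80.4 FPKM (1.26). Of the receptors that pair with NR4A1 and NR4A2, RXRA had 14.8 and 40.4 FPKM (1.39), RXRB had 43.8 and 34.5 FPKM (-0.33), and RXRG was near 0 in both libraries, at 0 and 0.03 FPKM.

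HSF1, the heat shock factor that IER5 is known to act on, had 73.0 and 91.5 FPKM (0.32). Of the 9 genes of HSF1 and its chaperone targets, 0 passed the 2-fold threshold in either direction. Among all genes, 6.72% were at least 2-fold lower and 6.78% at least 2-fold higher. The median log2 ratio of the 9 genes was -0.62. DNAJB1 had 161 and 96.4 FPKM (-0.74), BAG3 had 45.9 and 27.2 FPKM (-0.74) and HSPA1A had 366 and 220.0 FPKM (-0.73), which shares reads with the near-identical HSPA1B. The 12 widely expressed genes had a median of 0.031. Of these, 0 were at least 2-fold higher and 1 was at least 2-fold lower, against 6.78% and 6.72% of all genes. It was B2M, with 1309 and 422 FPKM (-1.63), while TBP had 26.1 and 14.8 FPKM (-0.78), HPRT1 had 19.3 and 32.1 FPKM (0.71) and GAPDH had 2454 and 2296 FPKM (-0.10).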
